A study of Homo sapiens with 15 samples.

Results

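RUNX1 binding that was called only in the cells with mutant RAD21, at places where GATA2 was called in both lines, comprised 2061 of the 96158 autosomal regions. A region is the joined span of all peaks of the 6 deposited lists that overlap by at least 1 bp. It was kept when it held a GATA2 peak in both lines and a RUNX1 peak in the mutant line, and no RUNX1 peak in the wild-type line and no SMC3 peak in either. The regions were thus chosen by measured values, the peak calls of all 6 lists. Their RUNX1 difference between the lines is therefore a description here and carries no test.

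GATA2 is a zinc finger factor of blood stem and progenitor cells that binds GATA motifs, largely in distal enhancers. RUNX1 binds DNA through its Runt domain together with its partner CBFB, and in blood progenitors it occupies many of the same enhancers as GATA2, TAL1 and ETS factors. SMC3, the cohesin subunit assayed here, and RAD21 form with SMC1 a ring that embraces DNA; cohesin keeps sister chromatids paired and anchors chromatin loops, often at CTCF sites.

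The cells were TF-1, an established human erythroleukemia line, transduced with a doxycycline-inducible vector for wild-type RAD21 (WT) or for RAD21 Q592*, whose coding sequence ends in a premature stop. All of the cells had 6 days of doxycycline, and both lines carried added RAD21. No line without an added RAD21 was analysed here, and the labels do not say whether either line is 1 clone. WT and Q592* each had 2 GATA2, 2 SMC3 and 2 input libraries; RUNX1 had 2 libraries in WT and 1 in Q592*.

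Each line and target has 1 deposited peak list, named as merged, and spread between replicates cannot be seen. Which libraries entered each list is not stated. No test between the lines or between classes of regions was possible, and the intervals given below cover counting error, or the spread between regions for medians, only. The labels give 1 library for RUNX1 in Q592*, although its list is named as merged like the others. Every region described rests on that list, and no value without it can be had. The depths recovered from the peak values were 93.4 to 107.5 M ChIP reads per list (M standing for 1000000) and 72.6 to 95.3 M background reads, and the ChIP depths of the RUNX1 lists were 104.8 M in WT and 106.7 M in Q592*. Background depth was 95.3 M for WT GATA2 but 86.7 M for WT RUNX1 and SMC3. It was 72.6 M for Q592* SMC3 but 78.0 M for Q592* GATA2 and RUNX1. The labels give 1 input group per line. Whether the controls or the assumed fragment length differed was not tested, and the GATA2 ratios below carry this uncertainty. No hg19 annotation or sequence was used here, so regions are given by position in that build, counted from 1, with no gene or motif assigned.

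The calls that defined the sites are given first, as a description. The whole Q592* RUNX1 list was the longer, with 15582 peaks against 9603 in WT. Of 19795 regions with GATA2 in both lines and neither WT RUNX1 nor SMC3, 2061 (10.4%, 95% Wilson interval 9.99 to 10.8%) carried RUNX1 in Q592*. The background rates were 8.40% of the 86888 regions of any kind without WT RUNX1 and 13.4% of the 25754 regions with GATA2 in both lines and no WT RUNX1, whatever their SMC3. The rule used this contrast, so the share itself is no finding. In the opposite direction 316 of 18050 regions with GATA2 in both lines, no SMC3 and no Q592* RUNX1 had RUNX1 in WT only (1.75%). Gains were thus 6.52 times as many as losses, in calls that the rule itself used and with lists of unequal length. Put as shares of RUNX1 regions at such sites, 48.5% (47.04 to 50.04%) of 4246 Q592* regions lacked a WT peak and 12.6% (11.4 to 14.0%) of 2501 WT regions lacked a Q592* peak. Among peaks whose −log10 q was 10 or higher, 1971 regions were gained and 179 lost. These are largely other regions, since only 937 of the 2061 (45.5%) had a Q592* RUNX1 peak at that level. The cutoff also drops weaker WT RUNX1 and SMC3 peaks, so that regions outside the 2061 come to meet the rule. With the lists of each target trimmed to the same number of peaks there were 885 gained and 933 lost regions, and trimming to equal length itself pushes these counts toward equality. The 2061 regions were 28.2% of the 7300 autosomal regions with RUNX1 in Q592* only, of which 2602 had no GATA2 peak in either line.

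The added RUNX1 peaks belonged to the weaker part of the Q592* RUNX1 list. By the authors' values their median −log10 q was 9.43, with quartiles of 6.59 and 14.3 and extremes of 2.01 and 79.7, and 30.6% of that list was weaker than this median. The list as a whole had a median of 14.3, which 516 of the 2061 regions exceeded. Their fold enrichment over local background had a median of 4.14 and ran from 1.84 to 11.7. At the 2185 regions with GATA2 and RUNX1 in both lines and no SMC3, the Q592* RUNX1 peaks were stronger, with a median −log10 q of 23.3 and a fold of 5.99. At the 1023 regions where GATA2 and RUNX1 were both called in Q592* only, the RUNX1 values were close to those of the 2061, at 10.1 and 4.08.

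GATA2 at the same places was well above the middle of its lists. In the WT GATA2 list the 2061 regions had a median −log10 q of 17.6 and a fold of 4.85, and 1376 of them were above the list's median of 12.2. In the Q592* GATA2 list the median −log10 q was 49.9 and the fold 8.81, and 1867 regions were above that list's median of 15.2. The 17734 regions with GATA2 in both lines and no RUNX1 or SMC3 had lower values, with −log10 q of 10.8 in WT and 20.6 in Q592*. Regions with RUNX1 in both lines had 23.3 and 52.6. The sites of added RUNX1 thus lay between these classes in WT GATA2 strength and near the latter in Q592*.

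To set lists beside each other, the number of reads at each summit was recovered from the authors' fold and −log10 p and divided by the depth of the list, giving a pileup in reads per M. At the sites of added RUNX1 the median GATA2 pileup was 0.577 in WT (quartiles 0.400 and 0.874) and 1.12 in Q592* (0.745 and 1.75), and the Q592* RUNX1 pileup was 0.468 (0.365 and 0.618). RUNX1 in Q592* was lower than GATA2 at most of these sites. It exceeded the GATA2 pileup at 63 of 2061 (3.06%), compared with 456 of 2185 (20.9%) where RUNX1 was called in both lines and 360 of 1023 (35.2%) where both factors were called in Q592* only. These pileups come from different antibodies, so the ratio describes the libraries.

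The share of standing GATA2 sites with added RUNX1 was higher where GATA2 was stronger in WT cells. The 19795 regions were divided into 10 bins of WT GATA2 pileup, with 1669 to 2389 regions each because of tied values. In the weakest bin 90 of 2389 regions (3.77%, 3.07 to 4.61%) carried RUNX1 in Q592*, and in the strongest bin 567 of 1972 (28.8%, 26.8 to 30.8%), 7.63 times the share. The share was 8.25% in the fifth bin and 17.3% in the ninth. It was higher at each step except from the fifth to the sixth bin, where it was 8.03%. The strongest bin held 27.5% of all sites of added RUNX1. Input signal differed between the classes as well: the median local background of the WT GATA2 peak was 1.89 times the genome-wide value at the sites of added RUNX1 and 1.42 times at GATA2 sites without RUNX1. Over all bins, 7.84% (7.41 to 8.30%) of 14060 regions below 2 times the genome-wide background under the WT GATA2 peak gained RUNX1 and 16.7% (15.8 to 17.7%) of 5735 regions at or above it. Stronger GATA2 and higher input thus occurred with more added RUNX1 alike. Below 2 times the background the share was 4.04% (3.47 to 4.69%) of 4037 regions in the weakest 2 bins and 20.8% (18.6 to 23.3%) of 1144 in the strongest 2. At or above it the share was 14.3% (4.98 to 34.6%) of only 21 regions in the weakest 2 bins and 24.2% (22.6 to 25.8%) of 2709 in the strongest 2. In a setting chosen after seeing the data, which kept only regions below 2 times the genome-wide background under their GATA2 peaks and any Q592* RUNX1 peak, 866 sites of added RUNX1 were left, 7.91% of the GATA2 regions kept.

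**Figure D1:**
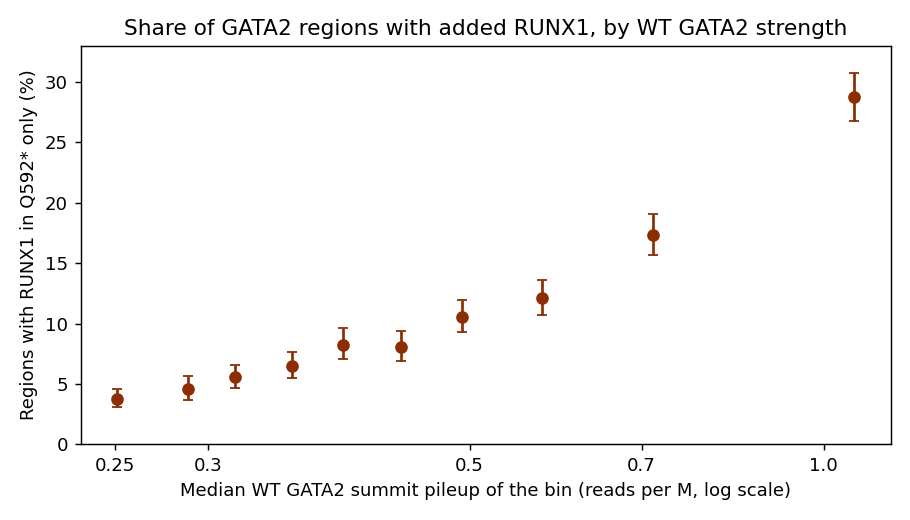
Percentage of regions with GATA2 in both lines, no WT RUNX1 and no SMC3 that carried a RUNX1 peak in Q592*, plotted against the median WT GATA2 summit pileup of each of 10 bins in reads per M on a log axis. Points are bins and bars are 95% Wilson intervals; the share goes from 3.77% in the weakest bin to 28.8% in the strongest.

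GATA2 itself was higher in Q592* at these sites, by more than at GATA2 sites that had neither RUNX1 nor SMC3 in either line. The log2 ratio of GATA2 pileup, Q592* over WT, had a median of 0.92 (95% order-statistic interval 0.90 to 0.94), a ratio of 1.89, at the sites of added RUNX1. It was 0.71 (0.71 to 0.72), a ratio of 1.64, at the 17734 sites without RUNX1. Where RUNX1 was called in both lines it was 0.90 (0.88 to 0.91), close to the sites of added RUNX1. The 316 sites that lost RUNX1 had 0.71 (0.67 to 0.75), as had those without RUNX1. The rule asked only for a GATA2 peak in each line and not for its size.

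GATA2 was higher in Q592* at 2051 of the 2061 sites, but that is nearly the background, 98.6% of all 32433 regions with GATA2 in both lines. A ratio of at least 2 was reached at 823 of 2061 (39.9%), compared with 28.2% of those 32433 regions and 21.2% of the sites without RUNX1. The difference was also present among sites of like WT strength. In each of the 10 bins the median at the sites of added RUNX1 was above that of the sites without RUNX1, by 0.14 to 0.30 on the log2 scale. The bin medians were 0.86 to 0.96 with added RUNX1 and 0.64 to 0.80 without. The ranges between the quartiles of the classes overlapped in every bin.

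**Figure D2:**
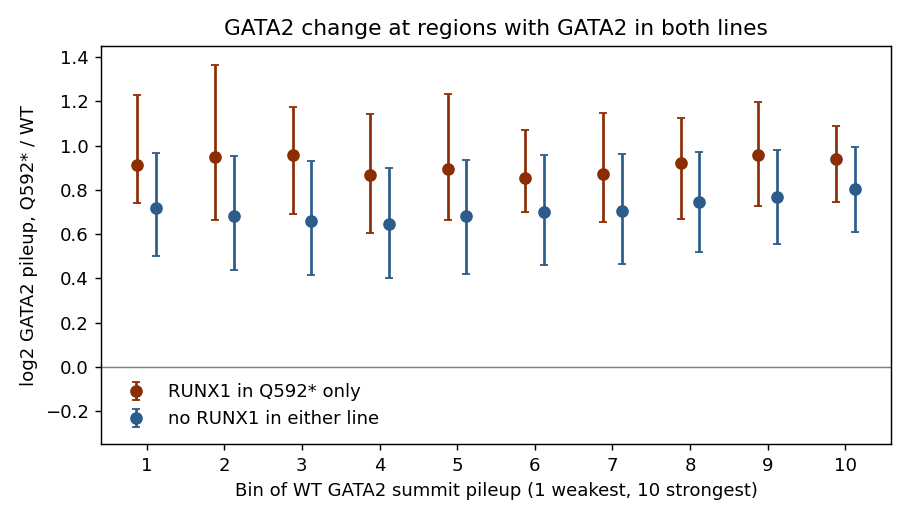
Log2 ratio of GATA2 summit pileup, Q592* over WT, in the 10 bins of WT GATA2 pileup from weakest to strongest. Points are medians and bars run from the lower to the upper quartile. Brown marks sites of added RUNX1 and blue marks GATA2 sites without RUNX1 or SMC3. The brown medians of 0.86 to 0.96 lie above the blue ones of 0.64 to 0.80 in all 10 bins.

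Read the other way, sites with a larger GATA2 ratio carried added RUNX1 more often. Of the 19795 sites, 4.47% (3.94 to 5.07%) of those with a log2 GATA2 ratio below 0.5 gained RUNX1, 9.98% (9.41 to 10.6%) of those from 0.5 to below 1, and 18.0% (16.9 to 19.1%) of those at 1 or more. The order was the same in the 5 weaker bins of WT GATA2, at 2.70%, 5.07% and 11.01%, and in the 5 stronger bins, at 7.02%, 14.7% and 24.1%. Input also differed between the lines at these classes. The median log2 ratio of local background under the GATA2 peak, each line relative to its own genome-wide value, was 0.00 at the sites of added RUNX1, 0.18 at sites without RUNX1, 0.16 at sites with RUNX1 in both lines and 0.53 at sites that lost RUNX1. A higher local background makes a call harder, and its part in which sites gained or lost a call was not tested.

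The difference in RUNX1 was bounded from the WT detection limit. For each site the smallest WT RUNX1 pileup that would have reached the weakest p-value of the WT RUNX1 list was computed over the local background of the WT GATA2 peak there. Where RUNX1 was called in both lines, 17 of 2185 WT RUNX1 peaks (0.778%) lay under the limit computed this way. As only called WT peaks enter, this can show a limit set too high but not one set too low. At these 2185 sites the median local background was 1.79 times the genome-wide value under the WT RUNX1 peak. Under the WT GATA2 peak, used for the limit, it was 1.70. At the sites of added RUNX1 the limit had a median of 0.267 reads per M and the Q592* pileup one of 0.468. The Q592* value was above the limit at 2013 of 2061 sites, and the median excess was 0.75 on the log2 scale, a ratio of 1.68. The rule had already asked for a Q592* call. The weakest −log10 p was 4.81 in the Q592* and 5.05 in the WT RUNX1 list. The count of 2013 was thus largely fixed by the rule. The Q592* pileup was more than 1.5 times the limit at 1389 sites (67.4%) and more than 2 times at 512 (24.8%). At 48 sites it did not exceed the limit, so the word gain stands there for a difference of calls only. At the other sites too, no WT RUNX1 pileup was measured, and the limit may be set too low. A peak must also be wide enough to be called, which the limit leaves out.

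For comparison, at the 2185 sites with RUNX1 in both lines the measured log2 ratio of RUNX1 pileup, Q592* over WT, had a median of 0.61, a ratio of 1.52. It was above 1.5 at 52.6% and above 2 at 9.84% of them. The Q592* RUNX1 list is thus higher per M reads at standing RUNX1 sites as well. The sites of added RUNX1 were chosen for a call in Q592* and none in WT, which favours large ratios, so their excess is given with no test.

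**Figure D3:**
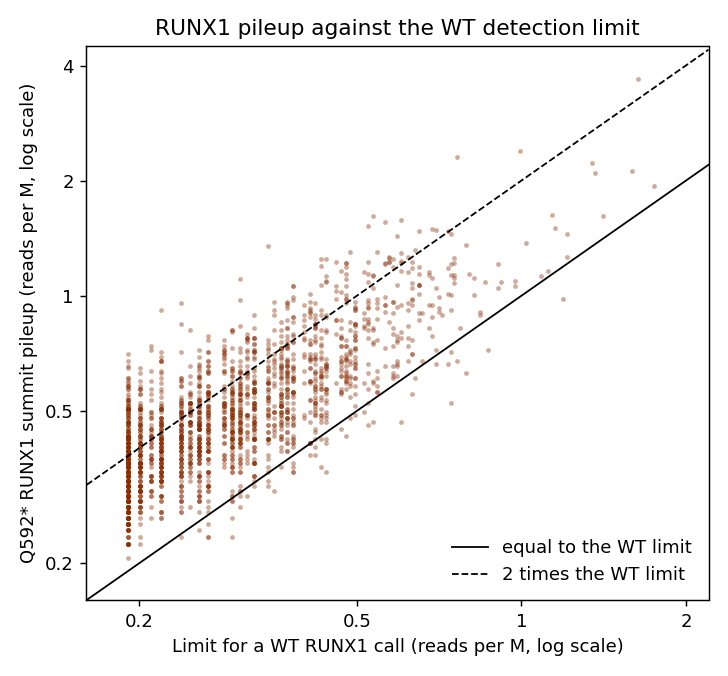
Q592* RUNX1 summit pileup against the smallest pileup that the WT RUNX1 list would have called at the same site, both in reads per M on log axes, for the 2061 sites. Each point is a site; the solid line marks equality and the dashed line 2 times the limit, which 512 sites exceed.

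Sites with a larger RUNX1 excess over the WT limit had a larger GATA2 ratio, but not more GATA2 in Q592*. Ordered by this excess, which uses the RUNX1 values behind the rule, and divided into 3 groups of 688, 694 and 679, they had median log2 GATA2 ratios of 0.85, 0.94 and 0.99 from the lowest to the highest group. The median Q592* GATA2 pileup was 1.21, 1.08 and 1.07 reads per M and that of WT GATA2 0.660, 0.549 and 0.521, so the larger ratios went with lower WT values. The median Q592* RUNX1 pileup was 0.422 in both lower groups and 0.543 in the highest, and the median WT limit was 0.344, 0.258 and 0.239. The order of the lower groups thus came with their limits and not with the median of RUNX1. These groups also differed in the median local background of the WT GATA2 peak, at 2.58, 1.70 and 1.51 times the genome-wide value, and this background sets the limit.

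The strongest added RUNX1 peak by −log10 q (79.7) lay on chromosome 19 from 33932065 to 33932485. GATA2 there was 3.47 reads per M in WT and 6.13 in Q592*, RUNX1 in Q592* was 2.39, and the WT limit was 0.992. The local input background under its peaks was 6.40 (Q592* GATA2) to 11.7 (WT GATA2) times the genome-wide value. The next, on chromosome 19 from 38916883 to 38917249, had a RUNX1 pileup of 3.68, GATA2 of 6.17 in WT and 7.90 in Q592*, and a background of 18.7 to 21.5 times the genome-wide value. These sites thus combine very high GATA2 with very high input signal.

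The next 3 of the 10 strongest lay over lower background. On chromosome 11 from 3635450 to 3636171 RUNX1 was at 1.35 reads per M in Q592*, 3.93 times the WT limit of 0.344, and near the GATA2 level of 1.37. Its RUNX1 summit lay 404 bp from the GATA2 summit, so the factors were not at the same spot of this region. On chromosome 18 from 18995513 to 18995841 GATA2 was weak in WT, at 0.325 reads per M, and 0.878 in Q592*, a ratio of 2.70. RUNX1 there reached 0.956, 4.01 times the WT limit, with a background of 1.32 times the genome-wide value under the RUNX1 peak. On chromosome 6 from 36086331 to 36086782 GATA2 was 1.28 and 2.19, and RUNX1 1.30, 2.68 times the limit. The background under the WT GATA2 peak was 2.58 times the genome-wide value at the chromosome 11 site, 1.51 at the chromosome 18 site and 4.53 at the chromosome 6 site, compared with the median of 1.89 over all 2061 sites.

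The other 5 of the 10 lay on chromosomes 18 (77266934 to 77267422), 4 (6280481 to 6280818), 16 (87887863 to 87888457), 21 (47714500 to 47715050) and 1 (31251269 to 31251598). Their −log10 q for RUNX1 was 46.4 to 48.6 and their RUNX1 pileup 1.71 to 3.03 times the WT limit. The background under their WT GATA2 peaks was 7.74, 5.10, 8.69, 4.42 and 5.02 times the genome-wide value in the same order. Of the 10, the site on chromosome 18 from 18995513 was the only one below 2 times. GATA2 was higher in Q592* at each of the 10, with ratios of 1.28 to 2.70. The largest excess among all 2061 sites, 4.18 times the limit, was on chromosome 4 from 3870128 to 3870452, a site named for that value after it was seen. Its GATA2 was 1.08 and 2.29 reads per M, its Q592* RUNX1 0.918, and the RUNX1 and GATA2 summits were 1 bp apart.

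The 3 sites with the strongest WT GATA2 by −log10 q had lower Q592* RUNX1 pileups than the fourth and the fifth. The first, on chromosome 9 from 128047031 to 128047729, had WT GATA2 at a fold of 23.9 and a −log10 q of 259.9, and GATA2 pileups of 2.75 in WT and 5.52 in Q592*. Its RUNX1 in Q592* was 0.768 reads per M with a −log10 q of 20.5, both above the upper quartiles of the 2061 sites. This pileup was 2.87 times the WT limit, compared with 1.66 times at the fourth site and 2.26 times at the fifth. On chromosome 1 from 20196396 to 20196983 and on chromosome 7 from 39849694 to 39850263, GATA2 was 2.89 and 2.86 in WT and 5.35 and 5.56 in Q592*. RUNX1 was 0.590 at both, 1.72 times the WT limit. The fourth opens the group of sites described next, and the fifth is the chromosome 19 site with the RUNX1 pileup of 3.68.

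The densest group of added RUNX1 sites was on chromosome 1, where 4 lay between 47646777 and 47705322. The first of them, from 47646777 to 47647326, is also the fourth of all in WT GATA2 −log10 q. Its GATA2 pileup was 5.81 in WT and 8.20 in Q592* and its RUNX1 2.23, 1.66 times the limit. The others, from 47679099 to 47679386, from 47697931 to 47698312 and from 47704879 to 47705322, had RUNX1 of 1.11, 1.12 and 0.618, at 1.48, 1.03 and 1.32 times the limit. GATA2 there was 1.70, 3.28 and 0.967 in WT and 2.83, 5.99 and 1.78 in Q592*. All 4 lay over an input background of 4.17 to 17.0 times the genome-wide value under the WT GATA2 peak, and the third barely exceeded what WT could have called. Such groups were rare: 1511 of the 2061 sites (73.3%) had no other within 100000 bp, and the median distance to the next was 324329 bp.

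At the edge of the rule the calls that decided it were weak on both sides, in different lists. The weakest RUNX1 peaks inside it had −log10 q of 2.01, 2.01 and 2.04 in Q592*, on chromosome 10 from 80843049 to 80843510, chromosome 20 from 58487732 to 58487972 and chromosome 5 from 58904524 to 58904957. The regions that missed it by the weakest WT RUNX1 peak had WT −log10 q of 2.18, 2.18 and 2.28, on chromosome 17 from 62965182 to 62965626, chromosome 2 from 28358160 to 28358570 and chromosome 12 from 51089783 to 51090190. Their WT RUNX1 pileups of 0.305, 0.305 and 0.324 reads per M lie beside Q592* pileups of 0.581, 0.393 and 0.262 at the sites just inside.

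The RUNX1 summit fell close to the GATA2 summit. The median distance between them in Q592* was 32 bp (30 to 34 bp), the quartiles were 14 and 64 bp, and 1806 of 2061 (87.6%) were within 100 bp. This is nearly the spacing at sites with RUNX1 in both lines, with a median of 31 bp (29 to 32 bp) and 89.8% within 100 bp, and at sites where both were called in Q592* only, with 35 bp (32 to 38 bp) and 86.8%. The rule set only that the peaks share a region, but that by itself keeps the summits near each other. The distance to be had from it alone was not computed. At 88 sites (4.27%) the summits were more than 200 bp apart, and these regions were wider, with a median width of 606.5 bp against 409 bp over all 2061.

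**Figure D4:**
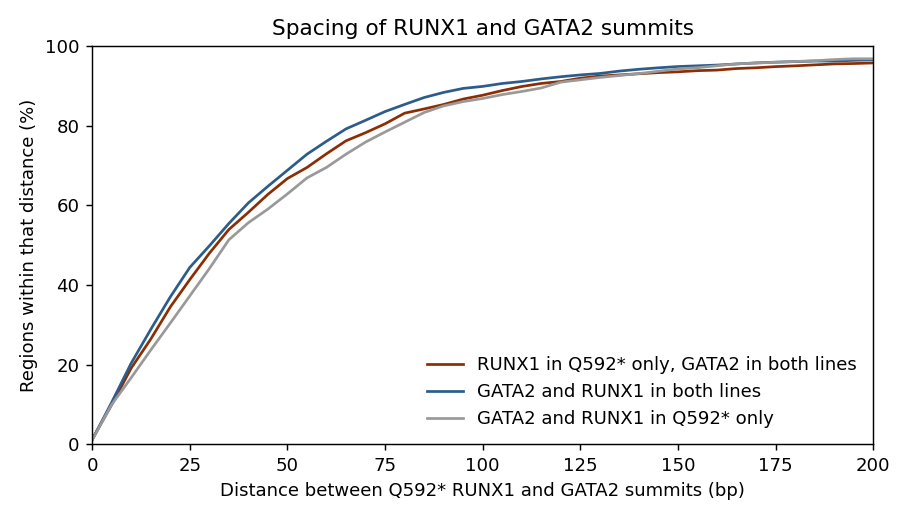
Cumulative percentage of regions by the distance between the RUNX1 and GATA2 summits in Q592*, in bp, up to 200 bp. Lines are sites of added RUNX1 (brown), sites with RUNX1 in both lines (blue) and sites with both factors in Q592* only (grey); they reach 87.6%, 89.8% and 86.8% at 100 bp.

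The added RUNX1 peak was mostly a narrow one inside a broader GATA2 peak. Its median width was 197 bp, compared with 394 bp for the Q592* and 271 bp for the WT GATA2 peak, and it lay wholly inside the Q592* GATA2 peak at 1709 sites (82.9%). That was the case at 64.9% of sites with RUNX1 in both lines and at 39.0% of sites with both factors in Q592* only. The RUNX1 peak was the wider at 41 sites (1.99%). GATA2 kept its place between the lines, with a median of 18 bp between the WT and Q592* summits.

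Existing RUNX1 was no more frequent around the sites than around other GATA2 sites. A WT RUNX1 peak lay within 10000 bp of 343 of the 2061 sites (16.6%, 15.1 to 18.3%), compared with 18.7% (18.2 to 19.3%) of the GATA2 sites without RUNX1 and 17.7% (16.1 to 19.3%) of those with RUNX1 in both lines. Other regions with RUNX1 in Q592* only were somewhat more frequent nearby, at 15.7% (14.2 to 17.3%) against 11.6% (11.2 to 12.1%) and 13.8% (12.4 to 15.3%). Another site of the 2061 was within this distance of 5.63% of them (4.71 to 6.71%) and of 3.65% (3.38 to 3.93%) of the GATA2 sites without RUNX1. Regions with GATA2 in Q592* only were within 10000 bp of 35.7%, 35.8% and 35.9% of the classes in the same order.

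By the rule no SMC3 peak was called at the sites, where weaker SMC3 signal cannot be seen. SMC3 peaks lay in their surroundings about as often as in those of other GATA2 sites. A WT SMC3 peak was within 10000 bp of 37.7% (35.7 to 39.9%) of the sites of added RUNX1 and 40.0% (39.2 to 40.7%) of the GATA2 sites without RUNX1, and a Q592* SMC3 peak of 30.5% (28.6 to 32.5%) and 29.4% (28.7 to 30.1%). Regions whose SMC3 was called in WT only lay within this distance of 16.3% (14.8 to 18.0%) of the former and 20.4% (19.8 to 21.0%) of the latter. The intervals of these last shares do not overlap, and the difference itself was not tested. Other WT GATA2 peaks were less frequent nearby as well. One lay within 10000 bp of 46.4% (44.3 to 48.6%) of the sites of added RUNX1 and 50.4% (49.7 to 51.1%) of the GATA2 sites without RUNX1.

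RUNX1 was called in Q592* only more often at GATA2 sites that carried SMC3, which the rule leaves out. Of the sites with GATA2 and SMC3 in both lines and no WT RUNX1, 651 of 2382 (27.3%, 25.6 to 29.2%) had it. With SMC3 in WT only it was 560 of 3125 (17.9%, 16.6 to 19.3%), and with SMC3 in Q592* only 168 of 452 (37.2%, 32.8 to 41.7%), compared with 10.4% without SMC3. GATA2 was stronger at the sites with SMC3, with median WT pileups of 0.637, 0.567 and 0.567 reads per M against 0.409. Among sites as strong in WT GATA2 as the strongest bin, at least 0.837 reads per M, the shares were 49.3% (45.8 to 52.8%), 33.2% (29.95 to 36.7%) and 66.4% (57.7 to 74.1%), against 28.8% without SMC3. Where RUNX1 was added, the median Q592* RUNX1 pileup was 0.497, 0.468 and 0.497, much as the 0.468 of the sites without SMC3. The median log2 GATA2 ratio there was 0.995, 0.955 and 1.02, so a large ratio was not particular to sites without SMC3. At sites with SMC3 that did not gain RUNX1 it was 0.851, 0.807 and 0.928. The last of these is slightly above the 0.918 of the 2061 sites.

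The sites were spread over all 22 autosomes, from 37 each on chromosomes 21 and 22 to 225 on chromosome 1. Their share of the GATA2 sites was lowest on chromosomes 6 (7.56%, 6.42 to 8.89%) and 2 (7.79%, 6.65 to 9.12%). It was highest on chromosomes 22 (18.4%, 13.7 to 24.3%), 16 (18.0%, 14.2 to 22.6%) and 19 (17.1%, 13.2 to 22.0%). WT GATA2 was also stronger on the latter, with median pileups of 0.493, 0.479 and 0.725 reads per M against 0.409 on chromosome 6 and 0.391 on chromosome 2. The 2 did not run together on every chromosome. Chromosomes 4 and 9 had lower median pileups, 0.353 and 0.372, with shares of 12.5% and 13.7%. In the segment of chromosome 13 from 75 to 100 Mb, chosen earlier for its many WT-only calls, 21 of 396 GATA2 sites gained RUNX1 (5.30%, 3.49 to 7.97%) and 12 sites lost it. On the rest of the chromosome 60 of 470 gained it (12.8%, 10.05 to 16.1%) and 7 lost it.

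**Figure D5:**
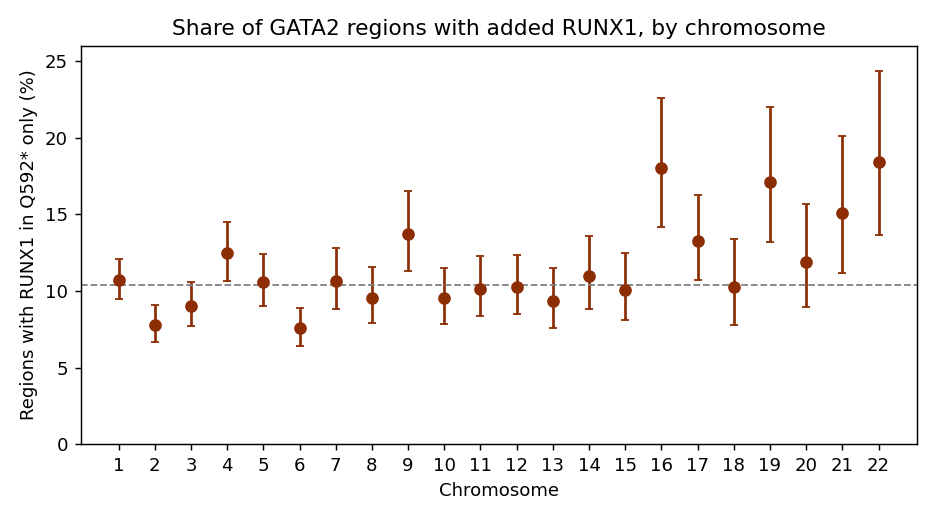
Percentage of regions with GATA2 in both lines, no WT RUNX1 and no SMC3 that carried RUNX1 in Q592*, by autosome. Points are chromosomes, bars are 95% Wilson intervals and the dashed line is the 10.4% of all autosomes; chromosomes 16, 19 and 22 lie at 17.1 to 18.4%.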

How the data were processed

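ChIP-seq libraries of 2 TF-1 lines were analysed as 6 peak lists, named as merged, 1 for each line and target. Bowtie2, Picard, MACS2 and build hg19 were used per the submitters' processing notes. Tool versions were not given in the sources used here. Each deposited fold is the authors' ratio of summit pileup to local background. The deposited −log10 q-value and −log10 p-value belong to the same summit. The deposited score, 10 times the −log10 q, was not used. Peaks in the lists have a −log10 q of at least 2.00 to 2.05, so weaker peaks cannot be seen.

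Whole ChIP reads at each summit were recovered from fold (with 1 added above and below) and −log10 p, and matched the deposited p to within 0.002 for 100% of peaks; with the worth of a read set wrong by 3%, at most 1.71% matched. Depths assume an effective genome of 2700000000 bp and a fragment as long as the narrowest peak of the list. The recovery and the joining of peaks were tested on simulated data. Where a region held several peaks of a list, the one with the highest −log10 q was used.

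The regions, lists and comparisons were chosen with earlier results of these data known. Named regions are the 10 with the highest Q592* RUNX1 −log10 q, the 5 with the highest WT GATA2 −log10 q, 3 on each side of the threshold, and the densest 100 kb. Genes and motifs had been planned and need an hg19 annotation and sequence, not used here. The software was scipy 1.17.1, pandas 2.3.3 and numpy 2.4.6 under Python 3.11.15, with figures from matplotlib 3.10.9.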

Additional observations from a re-analysis of the deposited data

How the results depend on the processing

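No paired analysis was possible because each list is named as merged and names no replicate, so that no library could be left out either. Of 41 alternative values 29 stayed within 1.5 times the reported count or within the reported interval, among them those with a 50% overlap, with summits within 200 bp, on all chromosomes and without chromosome 13. The last 2 settings keep nearly the same regions and could hardly move the values. The count of 1971 at a −log10 q of at least 10 is also among the 29, though it is of largely other regions. The cause of the other 12 was not tested, unless the setting itself removes peaks. Equal list lengths gave 885 regions, a share of 4.91%, a log2 GATA2 ratio of 0.97 and a summit distance of 29 bp. A −log10 q of at least 10 gave a share of 12.9%, a ratio of 0.98 and WT RUNX1 within 10000 bp of 11.4%; with no WT RUNX1 or SMC3 peak within 1000 bp the latter was 14.0%. Chosen after seeing the data, a local background below 2 times the genome-wide value gave 866 regions, a share of 7.91% and a ratio of 0.95, and pileup over the genome-wide mean, which needs no fragment length, a ratio of 0.85. The GATA2 ratio at sites of added RUNX1 stayed above that of sites without RUNX1 or SMC3 under each of these settings, by 0.16 to 0.25. Peaks near or below the lists' thresholds limit the counts.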
